A study of Mus musculus with 2 samples.

Results

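Genes of the blood vessel endothelium and of the signals that guide vessel growth were examined in total RNA from mouse stomach at embryonic day 14.5 (E14.5). The set held 34 genes, chosen by symbol from a list of known endothelial and angiogenic genes, of 43346 Ensembl genes in each deposited table. All 34 symbols matched a row in both libraries. They fell into 12 markers and adhesion molecules, 8 receptors or receptor subunits, 5 ligands, 5 transcription factors, 2 gap junction proteins and 2 genes of other function, which were an enzyme and a signalling effector. Each of the 2 libraries was made from 1 embryonic stomach of strain B6NCrl, and both belong to a single group with no treatment, no genetic change and no second condition, so levels and their spread are reported and no condition was tested. The samples were collected on 15 July (replicate 1) and 17 July (replicate 2), and no other difference between them is labelled. The labels give mixed sex for what they also call single pups, and both samples carry the same pup and pregnancy numbers, so whether the embryos came from 1 litter is not known.

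Endothelial cells line every blood vessel. Their growth is driven mainly by vascular endothelial growth factors, which act through the receptor tyrosine kinases KDR (also called VEGFR2) and FLT1 (VEGFR1), while angiopoietins act through the kinase TEK (TIE2) and its relative TIE1 to settle and stabilise vessels. Transcription factors of the ETS family, with the helix-loop-helix factors TAL1 and LYL1, are known to bind the control regions of many endothelial genes. In a developing gut organ the vessels form within the mesenchyme around the epithelium. In RNA of a whole organ, fewer cells of a type and less RNA per cell cannot be told apart.

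Levels were taken from the deposited TPM (an abundance corrected for transcript length and scaled to a fixed total per library), and detection required TPM of at least 1 in each of the libraries. Of the 34 genes, 33 were detected, where 34.9% of all Ensembl genes and 61.8% of protein-coding genes were. The exception was Tal1, a factor of blood and early endothelial cells, at TPM 0.74 in replicate 1 and 0.40 in replicate 2. Over the 34 genes the median TPM was 12.2 in replicate 1 and 10.8 in replicate 2, below the median of detected protein-coding genes, which was 18.9 and 17.8. Together the 34 genes took 0.127% of the gene counts in replicate 1 and 0.123% in replicate 2.

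The libraries held 23668322 and 23882647 expected counts on genes. Counts are estimates that need not be whole. Added spike-in RNAs took 12.1% of the TPM total in replicate 1 and 14.2% in replicate 2, which lowers the TPM of other genes somewhat more in replicate 2. By TPM, 28 of the 33 detected genes had the lower value in replicate 2, where 64.2% of all detected genes did.

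Among the markers and adhesion molecules the most abundant was Egfl7, a protein that endothelial cells secrete into their matrix, at TPM 91.8 in replicate 1 and 83.5 in replicate 2 (87.6 ± 5.9, SD, n = 2). Cd34, a sialomucin of endothelium and blood progenitors, had TPM 57.0 and 52.0. Plvap, which forms the diaphragms of fenestrae and caveolae in permeable vessels, had TPM 50.5 and 49.1. These levels held the same order in both libraries. The junction protein gene Esam followed at TPM 44.0 and 42.9. Icam2, a ligand of leukocyte integrins, had TPM 33.6 and 32.1, and Pecam1, the homophilic adhesion molecule of endothelial junctions, had TPM 34.5 and 31.0. Icam2 and Pecam1 therefore changed places between the libraries and could not be ordered.

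Cdh5 encodes VE-cadherin, the cadherin of endothelial adherens junctions, and had TPM 24.4 in replicate 1 and 21.4 in replicate 2. The sialomucin gene Emcn, known for veins and capillaries, had TPM 16.0 and 16.5. The C-type lectin gene Cd93 had TPM 10.4 and 9.4, and its relative Clec14a had TPM 7.1 and 5.9. Both lectins are known to bind the matrix protein MMRN2, whose gene had TPM 6.0 and 5.7. Vwf, the glycoprotein that tethers platelets, had TPM 5.6 and 7.1. Clec14a, Mmrn2 and Vwf overlapped in level, so no order is given among these 3.

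The receptor group was led by Ramp2, the accessory subunit that turns the calcitonin receptor-like receptor into an adrenomedullin receptor, at TPM 95.7 in replicate 1 and 96.6 in replicate 2 (96.2 ± 0.64, SD, n = 2). It was the most abundant of the 34 genes and stood above 89.3% of detected protein-coding genes. The gene of its partner, Calcrl, had TPM 32.8 and 33.4. With all transcripts of both genes counted, Calcrl stood at 0.343 of Ramp2 in replicate 1 and 0.346 in replicate 2. The other genes of RAMP subunits were lower, with Ramp3 at TPM 6.6 and 6.3 and Ramp1 at TPM 3.2 and 3.3. The adrenomedullin gene itself, Adm, had TPM 3.1 and 2.5.

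Aplnr, the apelin receptor, had TPM 43.1 in replicate 1 and 37.9 in replicate 2. The gene of its ligand, Apln, had TPM 3.9 and 3.2, and the receptor's level was 11.2 and 12.0 times the ligand's. A second known ligand gene, Apela, had TPM 2.6 and 1.7. S1pr1, the receptor for sphingosine 1-phosphate that steadies new vessels, had a mean TPM of 13.5 ± 0.70 (SD, n = 2). S1pr3 and S1pr2, related receptors that are not restricted to endothelium, had higher levels, with TPM 49.2 and 44.8 for S1pr3 and 37.4 and 34.4 for S1pr2. Ackr3, a scavenging receptor for chemokine and adrenomedullin, had TPM 26.1 and 27.3.

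Of the VEGF receptors, Kdr, the main signalling receptor, had TPM 20.9 in replicate 1 and 19.2 in replicate 2. Flt1, which binds VEGF tightly but signals weakly, had TPM 9.1 and 7.8, or 0.435 and 0.405 of the Kdr level. Of the angiopoietin receptors, Tie1 had TPM 14.1 and 12.1, and Tek had TPM 9.6 and 8.6. Tie1 thus exceeded Tek 1.46 and 1.40 times. These ratios counted all transcripts. Without transcripts annotated as noncoding, Tie1 had TPM 12.4 and 10.6, and Tek had TPM 9.6 and 8.6. On that measure Flt1 had TPM 7.4 and 5.9, and Kdr had TPM 20.7 and 19.2. In each of these pairs the direction was shared by both libraries.

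Among the ligands Vegfb, a VEGF that binds FLT1 but not KDR, was the most abundant, at TPM 34 in replicate 1 and 28.4 in replicate 2. Vegfa, the ligand of both receptors and the main driver of vessel growth, had TPM 6.2 and 5.0, which was 0.181 and 0.176 of the Vegfb level. Angpt1, the activating ligand of TEK, had TPM 6.9 and 6.8. Angpt2, a ligand known to loosen vessels and often to oppose ANGPT1, had TPM 3.9 and 3.3. The ratio of Angpt1 to Angpt2 was 1.80 in replicate 1 and 2.08 in replicate 2. Angpt2 lies wholly within Mcph1, on the opposite strand, but the annotated exons of these genes share 0 bases.

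The transcription factors spanned a wide range of levels, from the undetected Tal1 upward. Ets1, an ETS factor that many cell types express, had TPM 31.8 and 30.1. The ETS factors more typical of endothelium were lower, with Fli1 at TPM 8.9 and 8.4 and Erg at TPM 2.1 and 2.0, so that Fli1 stood 4.25 and 4.27 times above Erg. Lyl1, the relative of Tal1, had TPM 3.8 and 3.4. Erg rested on 69 and 80 counts and Tal1 on 50 and 29, and these were the only 2 genes of the set with a mean count under 100. Of the 34 genes, 13 overlap at least 1 other annotated gene, and 8 of these share exon bases with it. Where such a gene is on the opposite strand, as for Gja5 and Nos3, reads from the shared bases cannot be told apart, since it is not stated whether counting used strand.

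The gap junction genes differed in level, with Gja4 (connexin 37) at TPM 15.5 and 15.2 and Gja5 (connexin 40, typical of arteries and of the cardiac conduction system) at TPM 3.2 and 3.4. Nos3, the endothelial nitric oxide synthase, had TPM 3.7 and 3.4. Rasip1, a RAS-interacting protein needed for vessels to form a lumen, had TPM 6.6 and 5.1. Gja4 was above Gja5 4.78 times in replicate 1 and 4.50 times in replicate 2.

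**Figure D1:**
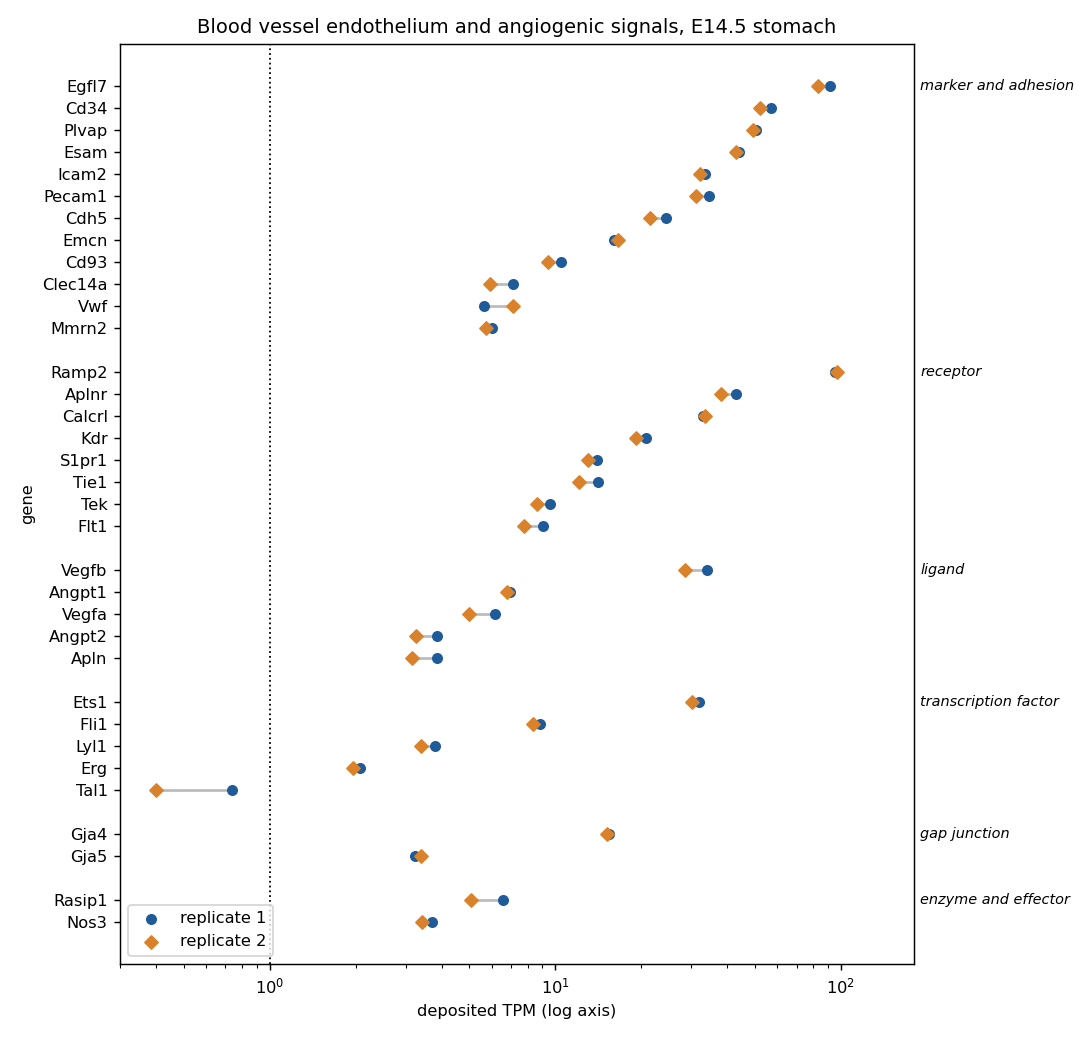
Deposited TPM of the 34 genes on a log axis, grouped by role, with a circle for replicate 1, a diamond for replicate 2 and a dotted line at TPM 1. Ramp2 and Egfl7 stand highest, Tal1 is the one gene below the line, and most diamonds lie slightly left of their circles.

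The difference between the libraries was expressed as a log2 ratio of expected counts, replicate 2 over replicate 1, scaled by TMM library sizes. Counting intervals of 95% cover the sampling of reads only, and with 1 library on each side no test was possible. A mean count of at least 100 was reached by 12761 genes, of which 0.439% were over 1.5-fold higher in replicate 2 and 0.815% over 1.5-fold lower. Of the 32 genes of the set past that count, 0 were in either direction. Their log2 ratios ran from -0.31 (Rasip1) to 0.13 (Gja5), and all 32 lay within the central 95% of all genes, from -0.39 to 0.36. The median log2 ratio was -0.06, against -0.01 over all genes tested. Replicate 2 was the lower in 24 of the 32, where it was the lower in 51.9% of all genes.

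For 22 of the 32 genes the counting interval included equal levels. It lay below equality for 8 genes, which were Rasip1, Vegfa, Flt1, Clec14a, Vegfb, Tie1, Cdh5 and Pecam1, and above it for Ramp2 and Calcrl. Over all 12761 genes the interval lay below equality in 19.0% and above it in 15.9%. The count depended on scaling. With DESeq2 size factors 7 genes lay below and 2 above, and with spike-in counts as library sizes 29 lay below and 0 above. The shares over all genes were not computed under these alternatives. Vegfa had 300 counts in replicate 1 and 255 in replicate 2 (log2 ratio -0.26, interval -0.50 to -0.01). Flt1 had 870 and 755 counts (log2 ratio -0.23, interval -0.37 to -0.08). Rasip1, with estimated counts of 342.9 and 281.8, had the lowest ratio (interval -0.54 to -0.07). Relative to the typical gene, and with TMM sizes, these 3 were lower in replicate 2 by more than the counting error alone, and by less than 1.5-fold. The interval of Vegfa ended close to equality. Rasip1 shares 654 exon bases with Izumo1 on the same strand, so its counts rest on how shared reads were divided. Izumo1 itself had 13.4 and 5.2 counts.

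Calcrl and Ramp2, both subunits of the adrenomedullin receptor, were the genes whose interval lay above equality. Calcrl had 1541 counts in replicate 1 and 1693 in replicate 2 (log2 ratio 0.11, interval 0.01 to 0.21). Ramp2 had 1326.7 and 1462.6 estimated counts (log2 ratio 0.12, interval 0.01 to 0.23). Of these, 266.3 and 455.0 fell on a Ramp2 transcript annotated as a retained intron. Without transcripts annotated as noncoding, the TPM of Ramp2 was lower in replicate 2, at 61.3 and 49.7, while that of Calcrl was 21.3 and 22.2. The higher Ramp2 count is thus not shown for its protein-coding transcripts. With spike-in counts in place of TMM as library sizes the ratios became -0.16 for Calcrl and -0.15 for Ramp2, a change of sign, since that scaling moved the median of all genes from -0.01 to -0.27. Ramp2 overlaps Vps25 on the same strand, so its counts rest on how shared reads were divided. Among the ligands the median log2 ratio was -0.23, and only Angpt1 had a ratio above 0, at 0.03 (interval -0.15 to 0.21). By deposited TPM the Angpt1 ratio was -0.03.

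**Figure D2:**
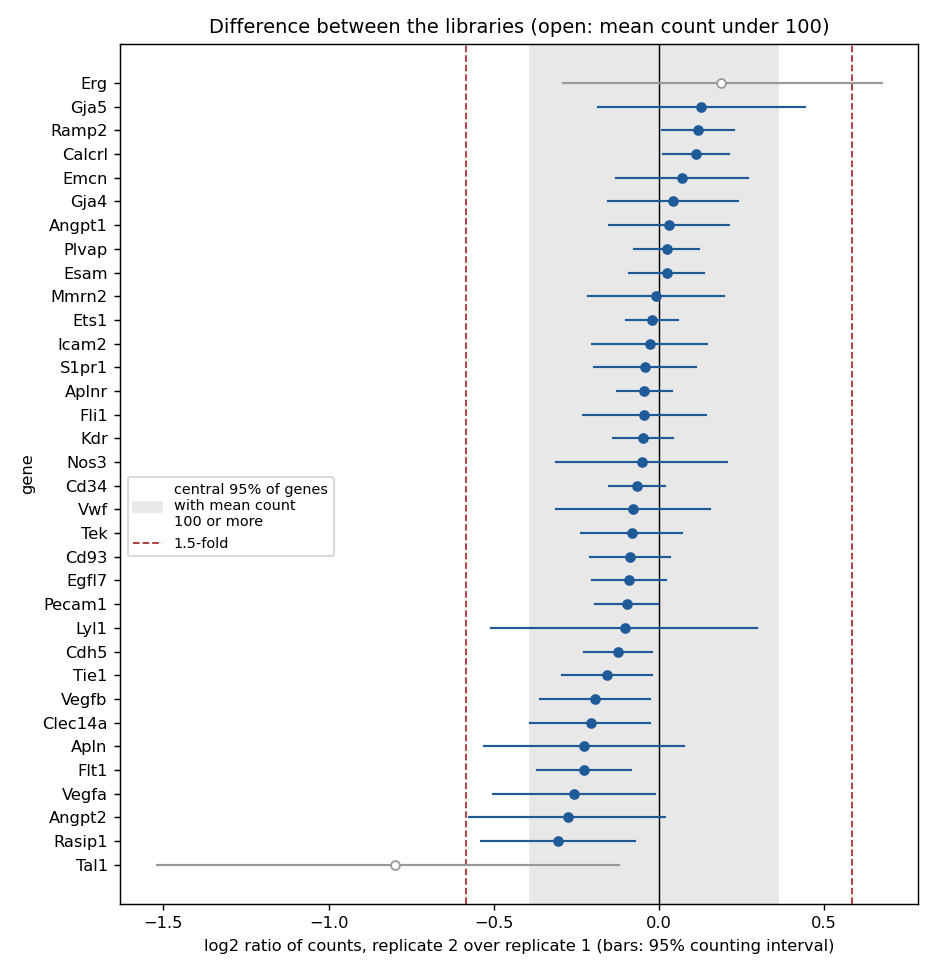
Log2 ratio of replicate 2 over replicate 1 for each of the 34 genes, with the 95% counting interval as a bar, open points for the 2 genes with a mean count under 100, the central 95% of all genes as a grey band and 1.5-fold as dashed lines. All filled points lie inside the grey band, and more lie left of 0 than right of it.

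Of the 34 genes, 11 had a single transcript in the deposited tables and 23 had several. In 15 genes at least 2 transcripts each held 10% or more of the gene's TPM in both libraries, and 21 of the 23 had the same leading transcript in both. The segments below set apart forms of 6 genes whose proteins differ. They were read from GENCODE M21 transcripts on the mm10 assembly, are written on the strand of the gene, and were chosen after the values had been seen. Stop codons are in capitals. Each line gives a segment that the first named transcript holds and the second lacks.

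Soluble Flt1, not the membrane form, chr5:147639130-147639224, minus strand, end of the coding sequence in exon 13 of 13: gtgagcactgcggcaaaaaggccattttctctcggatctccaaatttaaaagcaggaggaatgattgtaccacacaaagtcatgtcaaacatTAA

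Heparin-binding Vegfa, not the short form, chr17:46020991-46021122, minus strand, exon 6 of 7: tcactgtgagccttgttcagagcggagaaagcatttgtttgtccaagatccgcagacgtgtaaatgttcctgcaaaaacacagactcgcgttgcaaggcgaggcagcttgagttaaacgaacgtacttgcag

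Longer Vegfb, not the shorter form, chr19:6985496-6985596, minus strand, part of exon 6 of 7: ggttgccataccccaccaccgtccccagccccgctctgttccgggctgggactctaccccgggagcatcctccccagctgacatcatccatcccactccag

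Short-tailed Cd34, not the full-length form, chr1:194959780-194959794, plus strand, end of the coding sequence in exon 8 of 8: gagctggaacctTGA

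Second Pecam1 transcript, not the leading one, chr11:106671742-106671798, minus strand, exon 14 of 15: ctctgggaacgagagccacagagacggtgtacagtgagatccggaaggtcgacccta

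Full-length Tek, not the exon-skipped form, chr4:94799127-94799279, plus strand, exon 4 of 23: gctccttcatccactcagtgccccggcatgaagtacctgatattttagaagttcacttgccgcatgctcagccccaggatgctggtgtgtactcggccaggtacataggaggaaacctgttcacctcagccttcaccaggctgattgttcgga

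A soluble form of FLT1, which ends after the part that binds VEGF and traps the ligand, is known as a brake on vessel growth. Its transcript has 13 exons and a coding sequence for 688 residues, against 30 exons and 1333 residues for the membrane receptor, and the segment shown is its own ending. The soluble form held 25.8% of Flt1 in replicate 1 and 28.4% in replicate 2, and the membrane form held 55.4% and 47.8%. The deposited intervals of the 2 forms did not overlap in either library, at TPM 1.93 to 2.65 against 4.42 to 5.35 in replicate 1 and 1.82 to 2.51 against 3.22 to 4.04 in replicate 2. The level these intervals stand for is not given in the sources used here. A further 16.4% and 20.9% fell on a 12-exon transcript that is annotated without a coding sequence. Its deposited interval was wide, from TPM 0.41 to 2.37 in replicate 1 and from 0.55 to 2.66 in replicate 2. Estimated counts on the soluble form were 244.0 and 245.1, while those on the membrane form were 576.1 and 451.9, so the lower Flt1 count in replicate 2 lay in the membrane form.

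The exon shown for Vegfa adds the heparin-binding part of the protein, and forms without it diffuse more freely. The transcript with that exon held 41.5% of Vegfa in replicate 1 and 21.1% in replicate 2. Transcripts modelled without it held 49.9% and 68.2%. The deposited interval of the transcript with the exon ran from TPM 0.33 to 3.94 in replicate 1 and from near 0 to 2.27 in replicate 2, so the balance of forms was not resolved at 300 and 255 counts. The model of one transcript without the exon has 3324 bases in the deposited tables and 975 in M21, and its exons in the older annotation were not checked. Transcripts that also carry the exon of the longer matrix-bound form had 0% in both libraries by the main estimate, and 4.5% and 7.5% by the posterior mean.

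Vegfb has 2 known forms, which differ by the choice of a splice site: a heparin-binding protein and a freely diffusing one. The shorter model, of 188 residues, held 53.3% and 59.2%, and the longer, of 207 residues and carrying the segment shown, held 44.0% and 39.7%. The shorter was the higher in each library by the main estimate. The deposited intervals of the shorter and the longer overlapped in both libraries. They ran from TPM 13.15 to 21.21 against 11.3 to 18.47 in replicate 1. In replicate 2 they ran from 12.43 to 19.86 against 7.73 to 14.22. The order of the 2 forms was therefore not resolved. The inserted segment moves the reading frame, since 101 is not a multiple of 3.

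CD34 has a full-length form and a form with a short cytoplasmic tail. The full-length form, of 382 residues, held 57.8% in replicate 1 and 58.6% in replicate 2. The short-tailed form, of 325 residues, held 40.0% and 39.2%, and the segment shown gives the codons that end it early. The split differed by less than 1 percentage point between the libraries. Of the Pecam1 transcripts, which vary in the exons of the cytoplasmic tail, the leading one, of 697 residues, held 47.4% and 41.9%, and one of 716 residues, with the added exon shown, held 33.4% and 31.9%. Another, of 626 residues, held 10.1% and 13.6%.

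For Tek the full-length form, of 1123 residues, held 58.0% and 72%. The form that lacks exon 4, and so 153 coding bases, held 25.3% and 14.8%. Another coding transcript, of 23 exons and 1122 residues, held 16.7% and 13.1%. Models of near full length were thus not limited to the transcript of 1123 residues. The deposited interval of the skipped form reached from TPM 0.56 to 4.47 in replicate 1 and from near 0 to 2.78 in replicate 2. Skipping of this exon was therefore poorly resolved. The leading transcript held 83.1% and 86.1% in Emcn, 70.1% and 67.6% in Icam2, and 81.0% and 81.9% in Tie1. In Kdr it held 99.2% and 99.8%, so that Kdr, unlike Flt1, was nearly all one transcript.

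Several of the most abundant genes drew part of their TPM from transcripts that M21 does not annotate as protein-coding, such as retained introns, processed transcripts and targets of nonsense-mediated decay. Such transcripts held over 10% of the gene in both libraries for 6 genes. In Ramp2 they held 36.0% and 48.6%, with 1 retained-intron transcript of 755 bases at 25.2% in replicate 1 and 40.1% in replicate 2. In Egfl7 they held 39.4% and 37.8%, in Calcrl 34.9% and 33.5%, in Flt1 18.8% and 23.8%, and in Tie1 12.0% and 12.4%. Without them the mean TPM was 55.5 for Ramp2, 53.8 for Egfl7 and 21.8 for Calcrl, and the place of Calcrl among the 34 genes went from 7 to 12. Without them the leading gene was Ramp2 in replicate 1, at TPM 61.3, and Egfl7 in replicate 2, at TPM 52.0, so Ramp2, Egfl7 and Cd34 could not be ordered on that measure.

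Vwf was the case in which transcript models weighed most. A short transcript of 456 bases, without a coding sequence, held 46.3% and 47.6% of the Vwf TPM on only 15.7 and 21.7 estimated counts. By the main estimate most counts of the gene fell on a transcript of 8817 bases that is in the deposited tables but not in M21. These were 257.3 of 316 in replicate 1 and 172.0 of 304.0 in replicate 2. By the posterior mean this transcript held 12.9% and 6.7% of the Vwf TPM. An M21 coding transcript of 8834 bases and 2813 residues then held 10.6% and 6.7%, so the 2 were not told apart. The TPM of Vwf was higher in replicate 2 while its counts were lower (log2 ratio 0.34 by TPM and -0.08 by counts, interval -0.31 to 0.15). Its TPM without the transcripts annotated as noncoding was 2.66 and 1.45. The direction of the Vwf difference thus depended on the measure. Of the genes of the set with a mean count of 100 or more, 5, Vwf among them, changed sign in this way.

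**Figure D3:**
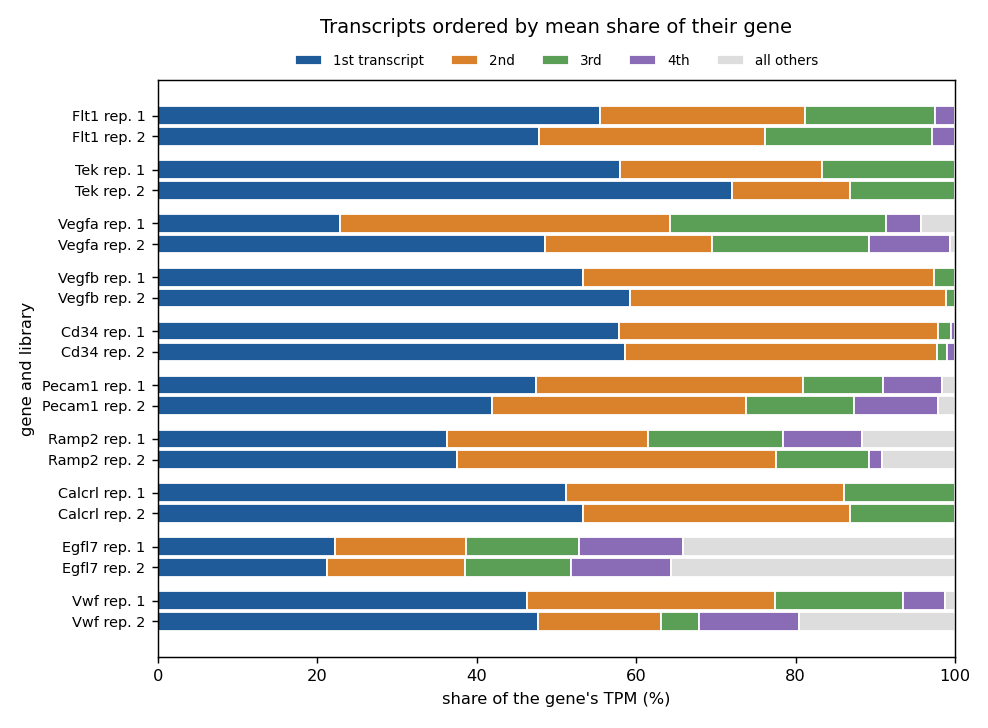
Share of each gene's TPM by transcript in each library for 10 genes, as stacked bars from 0 to 100%, with the transcripts of a gene in order of their mean share over the libraries. Cd34, Calcrl and Egfl7 have nearly the same split in both bars, while Vegfa, Tek and Ramp2 do not.

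Egfl7 is also the host of miR-126, the best known microRNA of endothelium, which restrains inhibitors of VEGF signalling. The sequence is shown because it is the second product of one of the most abundant genes of the set. Its hairpin lies at chr2:26591357-26591429 on the plus strand, inside intron 7 of the leading Egfl7 transcript, and the mature strand below is that of RefSeq on GRCm38.p6, with the seed (bases 2 to 8) in capitals.

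mmu-miR-126a-3p: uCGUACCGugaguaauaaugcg

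The deposited row of Mir126a had 0 counts in both libraries, where a count of 0 allows up to 3. RNAs of more than 200 bases were kept for these libraries, so neither the hairpin nor the mature strand was measured, and the Egfl7 level is no measure of the microRNA.

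RefSeq promoters, from 250 bases before to 50 after a gene's start, were matched for 18 of the 34 genes, with 24 start sites in all. Since ETS factors are known to act on endothelial genes, each window was searched on both strands for CAGGAA, a sequence around the GGAA core of ETS sites, and for CCGGAAGT, a stronger ETS sequence. The GC box GGGCGG, the dinucleotide CG and the TATA box, spelled TATAAA, were searched as well. These 5 motifs were chosen after the data had been seen. CAGGAA was in 14 of 24 windows (58.3%), where it was in 26.5% of windows of detected genes and 30.6% of all windows. CCGGAAGT was in 0 of 24, where 7.49% and 3.89% had it. The GC box was in 12 of 24, against 61.5% and 35.7%. The TATA box was in 8.33%, against 7.40% and 13.6%, and CG in all 24, against 99.3% and 94.6%. Presence of CG hides its number, since windows of the set held 12.0 on average and those of detected genes 20.4. A match says only that the letters are present, and binding was not measured.

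Upstream windows of 3 genes in 3 roles are shown, of those with a CAGGAA match and no annotated exon in the window. They run 5′ to 3′ on the strand of the gene and end at the base before the RefSeq start on GRCm38.p6, with CAGGAA, or TTCCTG where it is on the other strand, in capitals.

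Tek, receptor, chr4:94739039-94739288, plus strand: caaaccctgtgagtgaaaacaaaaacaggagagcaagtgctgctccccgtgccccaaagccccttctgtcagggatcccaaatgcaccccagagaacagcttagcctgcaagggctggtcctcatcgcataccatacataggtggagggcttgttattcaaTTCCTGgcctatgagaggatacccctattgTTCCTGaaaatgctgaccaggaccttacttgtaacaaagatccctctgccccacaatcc

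Erg, transcription factor, chr16:95459349-95459598, minus strand: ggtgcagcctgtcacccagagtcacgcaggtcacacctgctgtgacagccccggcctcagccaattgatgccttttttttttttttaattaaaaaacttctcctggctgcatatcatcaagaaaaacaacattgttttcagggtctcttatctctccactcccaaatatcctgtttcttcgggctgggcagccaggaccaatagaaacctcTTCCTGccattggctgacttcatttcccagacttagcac

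Gja4, gap junction, chr4:127314040-127314289, minus strand: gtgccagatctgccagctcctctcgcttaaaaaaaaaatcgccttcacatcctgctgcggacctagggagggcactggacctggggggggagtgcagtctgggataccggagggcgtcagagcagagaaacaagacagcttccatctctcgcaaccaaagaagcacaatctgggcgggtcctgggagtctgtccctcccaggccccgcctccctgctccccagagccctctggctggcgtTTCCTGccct

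The Tek window held 2 matches and the other 2 windows held 1 each. In all 3 the letters stood as TTCCTG on the strand of the gene. For Erg, 2 other RefSeq start sites had no match upstream. The 3 genes differed in level, from a mean TPM of 2.02 for Erg to 9.12 for Tek and 15.3 for Gja4.

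Related genes were read from 15 lists of partners and of other cell types, with 119 symbols, of which 118 matched a row and 108 were detected in both libraries. Of the 96 with a mean count of 100 or more, 2 differed over 1.5-fold between the libraries. Both were on the lymphatic list and are described below. Over all genes with that mean count, 0.439% were over 1.5-fold higher in replicate 2 and 0.815% over 1.5-fold lower.

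Of the VEGF genes outside the set, the co-receptors Nrp1 and Nrp2, which bind VEGF beside its kinases, were the most abundant at TPM 35.4 and 30.7 for Nrp1 and 34.4 and 29.1 for Nrp2. Both were above Kdr. Pgf, a ligand of FLT1, had TPM 13.0 and 14.1, above Vegfa in both libraries. All 6 of these genes were detected. Of the angiopoietin and TIE partners outside the set, the matrix protein gene Svep1 had TPM 8.3 and 7.1. Foxo1, a factor that TEK signalling keeps out of the nucleus, had TPM 7.3 and 6.4. Ptprb, the phosphatase that acts on TEK, had TPM 2.9 and 2.9.

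Other endothelial genes were detected in 15 of 15 matched cases, with a median TPM of 12.6 and 11.3. The most abundant were the basement membrane collagens Col4a1, at TPM 147.5 and 124.8, and Col4a2, at TPM 48.5 and 42.1, which other cell types also make. Eng, the endothelial co-receptor for TGF-beta ligands, followed at TPM 41.5 and 36.2. None of the 14 at a mean count of 100 or more differed over 1.5-fold. Among the ETS partners, Etv2, the factor of the first endothelial precursors, had 0 counts in both libraries. Tcf3, Ldb1 and Elf2, which many cell types express, led that list, with Tcf3 at TPM 83.9 and 79.7, Ldb1 at TPM 61.0 and 57.2 and Elf2 at TPM 44.0 and 51.5. Lmo2, which bridges TAL1 to GATA factors, had TPM 11.5 and 10.9, well above Tal1 itself.

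Markers of other cell types were read beside the set because several of its genes are known outside endothelium. Pericytes, the cells that wrap small vessels, had all 7 markers detected, from TPM 7.9 to 84.2 in replicate 1 and from 7.1 to 79.4 in replicate 2. Kcnj8 led them at TPM 84.2 and 79.4, followed by Pdgfrb at TPM 33.2 and 31.8, Abcc9 at TPM 23.2 and 20.7 and Rgs5 at TPM 20.3 and 17.7. Notch3 had TPM 14.6 and 15.7, and Cspg4 had TPM 7.9 and 7.1. Several of these are also known in smooth muscle, which surrounds the stomach wall.

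Lymphatic vessels share Tie1, Tek and Pecam1 with blood vessels. Their list had 5 of 6 genes detected, with a summed TPM of 94.2 and 82.4. Prox1, the regulator of lymphatic identity that gut endocrine cells also use, had 203.9 counts in replicate 1 and 126 in replicate 2 (log2 ratio -0.71, interval -1.05 to -0.39). Lyve1, a hyaluronan receptor of lymphatic endothelium and some macrophages, had TPM 8.0 and 4.5 (log2 ratio of counts -0.75, interval -1.01 to -0.50). Flt4, the receptor for VEGFC, had TPM 6.6 and 5.4 (log2 ratio -0.20), and Pdpn, a mucin that lymphatic and some epithelial cells carry, had TPM 31.4 and 26.1 (log2 ratio -0.20). The chemokine gene Ccl21a had TPM 42.5 and 41.8 (log2 ratio 0.04), and Reln, a secreted matrix protein, had TPM 4.3 and 3.6 (log2 ratio -0.45, interval -0.70 to -0.21). The list median was -0.33, and 5 of the 6 genes had an interval below equality, Ccl21a being the exception. Of all 12761 genes compared in this way, 19.0% had an interval below equality. Ccl21a has near-identical copies in the mouse genome, and its counts are uncertain. Beside these values, the blood vessel genes Cdh5 and Kdr had log2 ratios of -0.12 and -0.05. Flt1, at -0.23, and Clec14a, at -0.21, were as low as Flt4 and Pdpn. The genes of the set with that mean count ran from -0.31 (Rasip1) to 0.13 (Gja5), with a median of -0.06. Whether the 2 libraries differ in lymphatic content was not tested.

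Pecam1, Icam2, Cd34, Vwf, Fli1, Tal1 and Lyl1 are also known in leukocytes, platelets or their precursors. Leukocyte markers were detected in 6 of 6 cases, with a summed TPM of 128.8 and 130.1, led by Tyrobp at TPM 35.9 and 41.7, Laptm5 at TPM 37.6 and 35.3 and Coro1a at TPM 22.5 and 21.3. Csf1r had TPM 17.1 and 16.4, Cd52 12.4 and 12.1 and Ptprc 3.4 and 3.3. Of the platelet list 4 of 7 were detected. Pf4 had TPM 48.7 and 44.2, Itga2b 5.7 and 4.7, Ppbp 2.4 and 1.8 and Gp1bb 1.3 and 1.0, while the defining marker Gp9 had TPM 0.58 and 0.55. Of the erythroid regulators, Gata1 had TPM 0.56 and 0.58, with Epor at 4.1 and 3.5 and Klf1 at 1.8 and 1.7. The part of these cells in the levels of the 7 genes was not tested.

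The median of the 34 genes stood well below the medians of the markers of the main tissues of the organ, although 5 genes of the set (Ramp2, Egfl7, Cd34, Plvap and Esam) were above the mesenchymal marker Pdgfra in both libraries. Gastric epithelium had Krt8 at TPM 646.5 and 567.3, Krt18 at 353.8 and 308.4, Epcam at 266.2 and 244.7 and Cdh1 at 117.9 and 96.8. Mesenchyme had Col1a1 at TPM 948.9 and 852.0, Tcf21 at 278.5 and 300.1, Barx1, a regulator of stomach mesenchyme, at 107.6 and 94.5 and Pdgfra at 39.6 and 39.0. The defining endothelial markers Pecam1, Cdh5, Kdr, Tek, Tie1 and Emcn were all detected, at TPM 9.6 to 34.5 in replicate 1 and 8.6 to 31.0 in replicate 2.

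**Figure D4:**
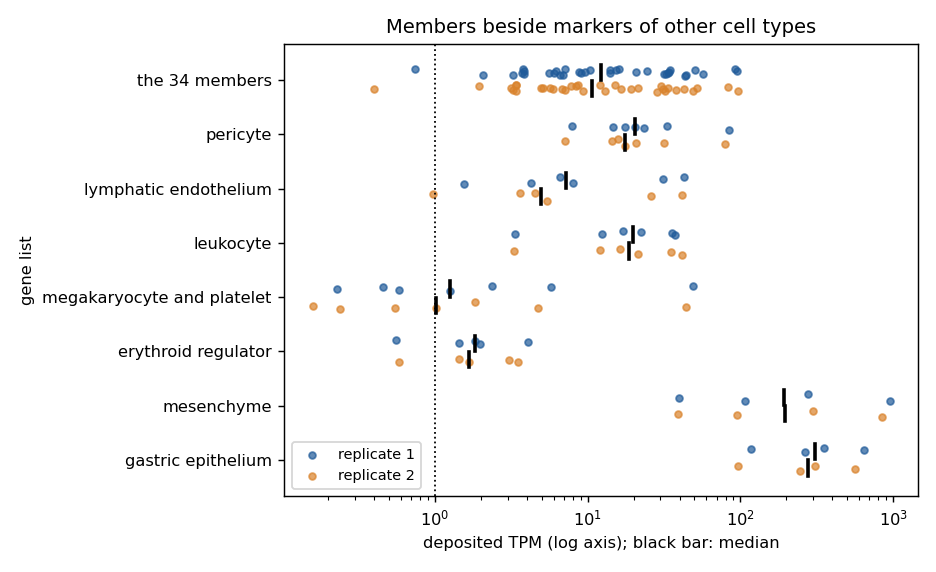
Deposited TPM on a log axis for the 34 genes and for the markers of 7 other cell types, with one point per gene and library, black bars at the median and a dotted line at TPM 1. The medians of the 34 genes (12.2 and 10.8) lie above those of the platelet, erythroid and lymphatic lists, below those of the pericyte and leukocyte lists, and far below mesenchyme and gastric epithelium.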

How the data were processed

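The 2 libraries form 1 group of 2 replicates. What their spread holds, between embryos, litters or library preparations, cannot be told apart, since both carry the same pup and pregnancy numbers. Per the deposited notes, reads were placed on mm10 with GENCODE M4. The aligner and the counter, and whether strand was used, are not given in the sources used. The authors deposited expected counts (estimated reads per gene or transcript, not normalized), TPM with spike-ins inside its fixed total, posterior mean TPM, FPKM and the percent of each transcript in its gene. Symbols, positions and transcript models came from GENCODE M21. Total expected counts were 25072242 and 25599910, and 15.5 and 25.0 of them fell on numbered entries that name no gene, left out here.

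Log2 ratios used edgeR 4.0.16 TMM sizes (R 4.3.3) over 43346 genes with 0.5 added to each count, and exact conditional (Clopper-Pearson) 95% intervals of rounded counts. Reads without molecular identifiers are not independent molecules, so intervals and zero floors cover counting error only. The code was tested on simulated counts. Other tools were matplotlib 3.10.9, scipy 1.17.1, pandas 2.3.3 and numpy 2.4.6 in Python 3.11.15, and DESeq2 1.42.0 size factors served as an alternative.

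The 34 genes, the lists and the alternatives were chosen with earlier results of these data known. All 34 genes are named. Of the lists, the rule was to name the 3 most abundant genes, the defining markers and any gene over 1.5-fold apart. Further list genes, such as Ramp3, Apela and Radil, were named outside this rule. A marker that this rule takes is not reported here.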

Additional observations from a re-analysis of the deposited data

How the results depend on the processing

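No paired analysis was possible because both libraries belong to 1 group. The median log2 ratio of the 34 genes was -0.33 with spike-in counts as library sizes and -0.12 from deposited TPM, while the same changes moved the median of all genes to -0.27 and -0.07. With spike-in sizes, added after seeing the data, 29 genes in place of 10 had a counting interval that excluded equal levels. Without a filter on counts, or with a mean count of 10 or more, 1 gene (Tal1) was over 1.5-fold apart. Shares over all genes were not computed for these counts, so they are not read as traits of the set. The median TPM was 13.8 after rescaling without spike-ins and mitochondrial genes. With 1 replicate left out at a time it was 10.8 to 12.2, and 33 genes were detected in either case. At TPM 5 or more, 26 genes were detected, and the share of all genes at that level was not computed. Posterior mean percents moved the leading transcript's share by over the SD between libraries in 12 of 23 genes. Leaving out transcripts annotated as noncoding, chosen after seeing the data, gave a median TPM of 10.7. Ratios of single genes with under about 100 counts, and transcript shares of genes such as Vegfa, are limited by depth.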

Other observations

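Genes that separate arteries from veins were read on a list of 14, of which 13 were detected. The venous regulator Nr2f2, which stomach mesenchyme is also known to express, had TPM 51.6 in replicate 1 and 49.7 in replicate 2, followed by the venous receptor Ephb4 at TPM 34 and 31.1 and by Nrp2 at TPM 34.4 and 29.1, which changed places between the libraries. Efnb2, the arterial ligand of EPHB4, had TPM 21.1 and 21.3. The arterial NOTCH ligand Dll4 had TPM 5.3 and 4.1, and Bmx, a kinase of arterial endothelium, was not detected, at TPM 0.33 and 0.19. The rest of the list lay between these extremes. Notch1 had TPM 23.9 and 21.7, Jag1 18.0 and 14.9, Hey1 11.95 and 13.43, and Cxcr4 9.6 and 10.4. Sox17 had TPM 6.6 and 4.5, Jag2 4.2 and 4.2, Hey2 3.5 and 4.0, and Notch4 3.5 and 2.9. The balance of arteries and veins was not tested.

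All 9 genes listed as partners of RASIP1 and of the cerebral cavernous malformation complex were detected. The small GTPase Rap1b had TPM 191.7 and 171.2, and the complex members Pdcd10, Ccm2 and Krit1 had TPM 83.5 and 77.3, 63.4 and 63.8, and 12.1 and 11.7. Radil, a relative of Rasip1, had TPM 1.7 and 1.1. Of 8 oxygen-sensing genes all were detected, with Hif1a at TPM 66.7 and 58.5, Egln3 at 41.3 and 34.4, Hif3a at 37.9 and 33.1 and Epas1, the oxygen-sensing factor typical of endothelium, at 7.4 and 6.2.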
